A study of Pyrus calleryana with 9 samples.

Results

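The shaggy-related kinases are the plant members of the glycogen synthase kinase-3 family, and the best known of them is BRASSINOSTEROID INSENSITIVE 2 (BIN2) of Arabidopsis. They were taken from the deposited gene table as the genes whose Swissprot name was a shaggy-related protein kinase or a glycogen synthase kinase-3. This search found 15 of 59552 genes, and the 10 with the highest mean FPKM (fragments per kilobase of transcript, scaled to library size) were kept, so the members were chosen by their mean FPKM over all 9 libraries. The study followed whole seeds of callery pear (Pyrus calleryana), pooled within each replicate, through cold stratification, the moist chilling that releases seed dormancy. All seeds had imbibed water for 24 h. The 0 d seeds had no cold, and the 20 d and 50 d seeds were sampled after 20 and 50 days on wet filter paper at 4 °C. Each of these 3 stages had 3 replicate RNA-seq libraries, A, B and C. All reads had been aligned to the genome of the wild pear Pyrus betuleafolia, and gene positions below are on that assembly as the authors' table gives them.

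In Arabidopsis, brassinosteroids (BRs) bind the receptor kinase BRI1 at the cell surface, which acts together with co-receptors of the SERK family. The signal passes through receptor-like cytoplasmic kinases to phosphatases of the BSU1 and BSL type, which inactivate BIN2. While BIN2 is active it phosphorylates the transcription factors BZR1 and BES1, and 14-3-3 proteins then hold these in the cytoplasm. The kinase is thus a brake on BR responses. In Arabidopsis seeds BRs favor germination and oppose abscisic acid, and BIN2 phosphorylates the abscisic acid response factor ABI5. These roles concern protein activity, whereas the libraries measured transcripts.

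Each library held between 13893019 and 16228340 counts. Between replicates of a stage, the Pearson correlation of log2 CPM over the 28339 tested genes was 0.883 to 0.892 for pairs with 20 d replicate B and 0.900 to 0.924 for pairs with 50 d replicate C. It was 0.954 to 0.975 for the other pairs. For each library, the departure of each gene's log2 CPM from its mean over the 9 libraries was regressed on log2 gene length. This slope, which is relative to the other libraries, was -0.333 in 20 d replicate B and -0.234 in 50 d replicate C. It was 0.264 to 0.383 in the other 20 d and 50 d libraries and -0.369 to -0.107 at 0 d. Seed genes were taken as those of reserves (oleosins, legumins and vicilins) and of late embryogenesis abundant proteins, 33 of 37 with a mean FPKM of at least 1. They summed to 16272 to 30277 FPKM at 0 d, 15722 to 19895 at 20 d and 2934 to 6817 at 50 d. No gene matched an 11S globulin or a 2S albumin by name. Genes of green tissue (15 of 39 with a mean FPKM of at least 1) summed to 171 to 269, 139 to 195 and 532 to 692 FPKM in the same order. The seed gene and the green tissue sums each overlapped between 0 d and 20 d and stood apart from both at 50 d. Oleosins gave most of the seed gene sum (13009 to 24071 FPKM at 0 d). Vicilins overlapped between all stages, with 176 to 356 FPKM at 0 d, 135 to 1014 at 20 d and 139 to 362 at 50 d. The part of these genes in the kinase levels was not tested. In whole seeds, fewer cells of a type and less RNA per cell cannot be told apart.

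By their closest Swissprot match, the 10 kinase genes were 2 each of eta, zeta, alpha and MsK-3 and 1 each of epsilon and theta. Eta is BIN2 itself, and zeta is a close relative of the same Arabidopsis subgroup. Alpha and epsilon belong to another subgroup and theta to a further one, while MsK-3 is a kinase described in alfalfa. All 10 had enough counts to be tested, with 209 to 3860 counts per gene and library. In 9 of them the only Pfam domain was a protein kinase domain. The cutoff fell between theta Chr1.g58153, the last member with a mean of 15.2 FPKM over the 9 libraries, and kappa Chr15.g00092, the next gene with 14.2 FPKM. Ranked by mean CPM, 9 of the 10 were the same, with theta Chr7.g33435 in place of Chr1.g58153. Ranked by the median FPKM, 8 were the same, with kappa Chr15.g00092 and Chr8.g56233 in place of Scaffold1.g05198 and Chr1.g58153. The mean levels are therefore a description. The mean that chose the members takes in the levels of all stages. Theta Chr1.g58153 was kept through its 0 d levels, and the kappa genes stayed outside with low 0 d levels.

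**Figure D1:**
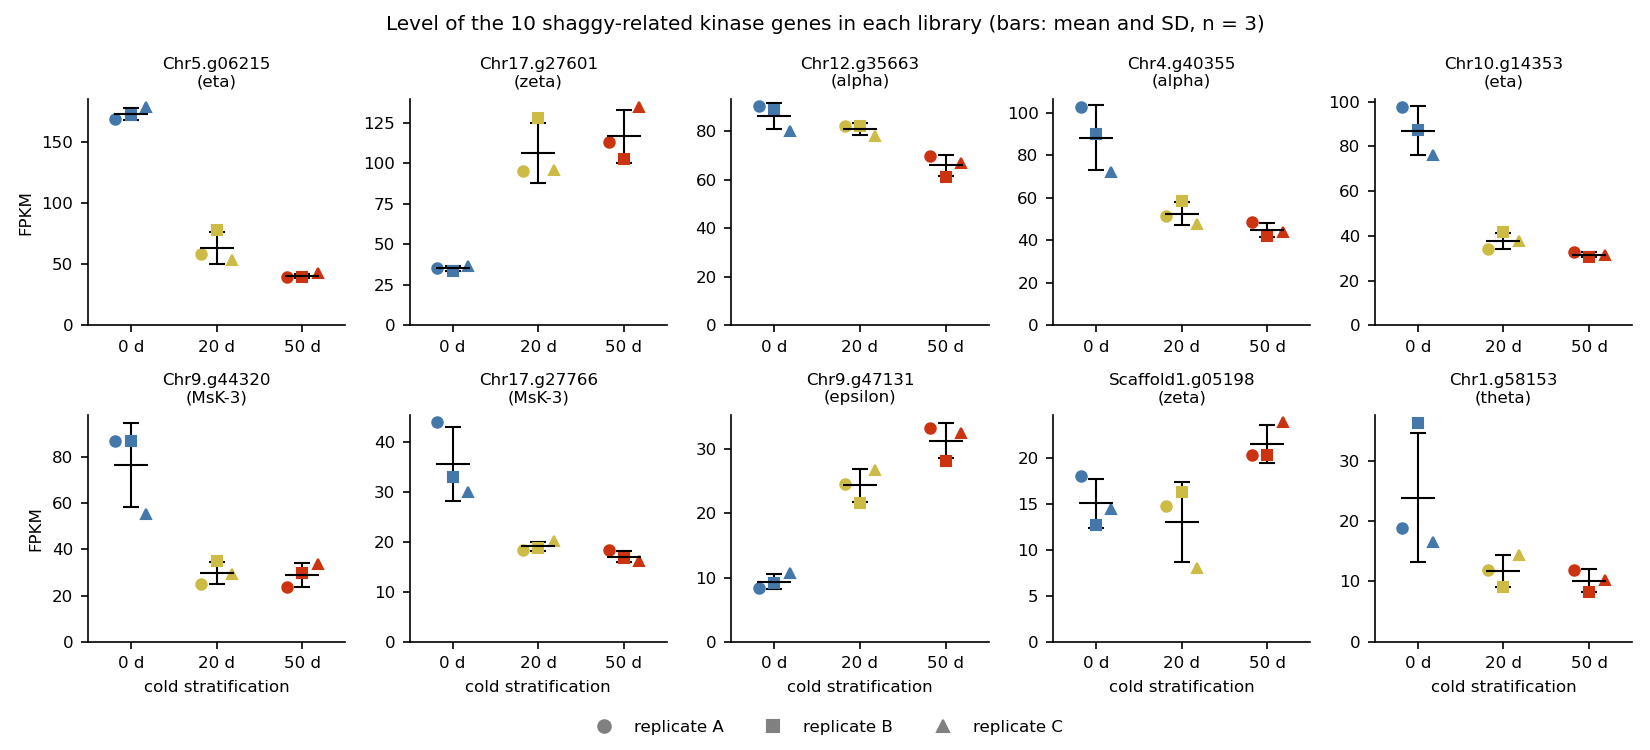
FPKM (y axis, from 0) of the 10 shaggy-related kinase genes in each library at 0, 20 and 50 d of cold stratification (x axis). Symbols are replicates A, B and C, and bars give the mean and SD of 3 replicates. Eta Chr5.g06215 averaged 173 FPKM at 0 d and 40.5 at 50 d, whereas zeta Chr17.g27601 averaged 35.3 and 117.

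The BIN2-type eta genes had lower transcript levels after cold and the main zeta gene a higher level. Eta Chr5.g06215 (chromosome 5, 33338320 to 33342014, minus strand, a model of 1293 bases) had the highest mean level of the family. Its FPKM was 169, 172 and 178 in the 0 d libraries, 58.4, 77.8 and 53.2 at 20 d, and 39.4, 39.5 and 42.6 at 50 d. Every 20 d library lay below every 0 d library, and every 50 d library below every 20 d library. In the edgeR fit it fell by 1.37 on the log2 scale from 0 d to 20 d (SE 0.27, adjusted p = 0.0040) and fell by 2.03 from 0 d to 50 d (SE 0.27, adjusted p = 0.0002), which is 4.09-fold lower. The fall to 50 d was called in all 18 alternatives, with an adjusted p of at most 0.0020. The fall to 20 d was not called when only these 2 stages were fitted, or without 0 d replicate B, 0 d replicate C, 20 d replicate A or 20 d replicate C, with log2 fold changes between -1.65 and -1.25 over all alternatives.

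The other eta gene, Chr10.g14353 (chromosome 10, 29343245 to 29347241, minus strand), stood at 97.8, 87.2 and 76.2 FPKM at 0 d. It stood at 34.2, 41.6 and 37.7 at 20 d and at 32.8, 30.6 and 31.6 at 50 d. Here too the 3 stages did not overlap. It fell by 1.12 on the log2 scale to 20 d (SE 0.26, adjusted p = 0.0086) and fell by 1.40 to 50 d (SE 0.26, adjusted p = 0.0014). The call at 20 d was lost in 10 of 18 alternatives, while the call at 50 d was lost only without 50 d replicate B (adjusted p = 0.0103).

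Zeta Chr17.g27601 (chromosome 17, 27581035 to 27586627, minus strand) had 35.5, 33.6 and 36.8 FPKM at 0 d. It had 95.6, 128 and 96.1 FPKM at 20 d and 113, 103 and 135 at 50 d. All cold-treated libraries lay far above the 0 d libraries, and the 20 d and 50 d libraries overlapped. Its log2 fold change was 1.68 to 20 d (SE 0.27, adjusted p = 0.0017) and 1.79 to 50 d (SE 0.28, adjusted p = 0.0004), a 3.45-fold rise. The rise to 50 d was called in all 18 alternatives, and the rise to 20 d was lost without 0 d replicate C (adjusted p = 0.0117).

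The other zeta member, Scaffold1.g05198 (Scaffold1, 4801678 to 4807441, minus strand), did not meet the limits in any comparison. Its levels were 18.03, 12.7 and 14.5 FPKM at 0 d, 14.8, 16.3 and 8.09 at 20 d, and 20.4, 20.4 and 23.9 at 50 d. Only the 50 d libraries stood above all others, and the log2 fold change from 0 d to 50 d was 0.58 (SE 0.31, adjusted p = 0.16, 95% interval -0.04 to 1.19).

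Neither alpha gene was called in any comparison of the main edgeR fit. In Arabidopsis the alpha kinase is known to phosphorylate a glucose-6-phosphate dehydrogenase under salt stress. Alpha Chr12.g35663 (chromosome 12, 23236428 to 23240822, plus strand) had 90.2, 88.7 and 80.1 FPKM at 0 d, 82.2, 82.2 and 78.1 at 20 d, and 69.8, 61.2 and 67.02 at 50 d. The 0 d and 20 d libraries overlapped and the 50 d libraries lay just below them, and the 95% interval of the log2 fold change to 50 d was -0.82 to 0.16. Alpha Chr4.g40355 (chromosome 4, 24344144 to 24348505, plus strand) had 102, 89.7 and 72.1 FPKM at 0 d. It had 51.7, 58.3 and 47.6 FPKM at 20 d and 48.7, 42.1 and 43.7 at 50 d. The 0 d libraries were the highest, with a log2 fold change to 50 d of -0.91 (SE 0.27, adjusted p = 0.017), which was not called. With the length trend removed, an alternative chosen after seeing the data, Chr4.g40355 was called lower in edgeR at 20 d (-1.08, adjusted p = 0.0067) and at 50 d (-1.46, adjusted p = 0.0006).

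The MsK-3 genes had their highest levels at 0 d. MsK-3 Chr9.g44320 (chromosome 9, 26146093 to 26150173, plus strand) stood at 86.9, 87.3 and 55.5 FPKM at 0 d, 25.1, 34.9 and 29.4 at 20 d, and 23.5, 29.7 and 33.8 at 50 d. The 0 d replicate C was well below its 2 fellow replicates but above all cold-treated libraries. The gene fell by 1.28 on the log2 scale to 20 d (SE 0.30, adjusted p = 0.0092) and fell by 1.34 to 50 d (SE 0.30, adjusted p = 0.0040). The first of these calls was lost in 9 of 18 alternatives and the later in 5, among them without 0 d replicate A, 0 d replicate B, 50 d replicate A or 50 d replicate B, with an adjusted p of at most 0.023.

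MsK-3 Chr17.g27766 (chromosome 17, 28955024 to 28958125, plus strand) had 43.9, 33.0 and 29.9 FPKM at 0 d, 18.4, 18.7 and 20.1 at 20 d, and 18.3, 16.6 and 16.1 at 50 d. All 0 d libraries were above all later ones. Its log2 fold change to 50 d of -1.0002 (SE 0.27) had an adjusted p of 0.0102 and so missed the limit of 0.01 by little. It was called in 6 of 18 alternatives, DESeq2 and both limma fits included.

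Epsilon Chr9.g47131 (chromosome 9, 1746383 to 1756333, minus strand) was the lowest member at 0 d. It had 8.40, 9.08 and 10.6 FPKM at 0 d, 24.6, 21.7 and 26.8 at 20 d, and 33.3, 28.2 and 32.5 at 50 d. The 3 stages did not overlap and followed each other upward. The log2 fold change was 1.46 to 20 d (SE 0.26, adjusted p = 0.0027) and 1.80 to 50 d (SE 0.27, adjusted p = 0.0003). The gene model is unusual among the 10, with 3466 bases over a span of 9951 bases and a C-5 cytosine-specific DNA methylase domain beside the kinase domain. Reads from these 2 parts cannot be told apart in a gene count. With each library's trend with gene length removed, an alternative chosen after seeing the data, neither rise was called (1.17 to 50 d, adjusted p = 0.0159, and 0.94 to 20 d, adjusted p = 0.056). The rise to 20 d was also not called when any 0 d library, 20 d replicate A or 20 d replicate C was left out.

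Theta Chr1.g58153 (chromosome 1, 5509809 to 5513792, minus strand) had 18.9, 36.2 and 16.5 FPKM at 0 d, 11.8, 9.03 and 14.3 at 20 d, and 11.9, 8.26 and 10.2 at 50 d. The Arabidopsis theta kinase is known to phosphorylate a BZR1 relative. The 0 d replicate B stood apart at about the sum of its fellow replicates, and the lowest 0 d library was still above all later ones. The log2 fold change of -1.18 to 50 d (SE 0.36, adjusted p = 0.020) was not called, but was called with DESeq2 and in 3 other alternatives, without 20 d replicate B among them.

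**Figure D2:**
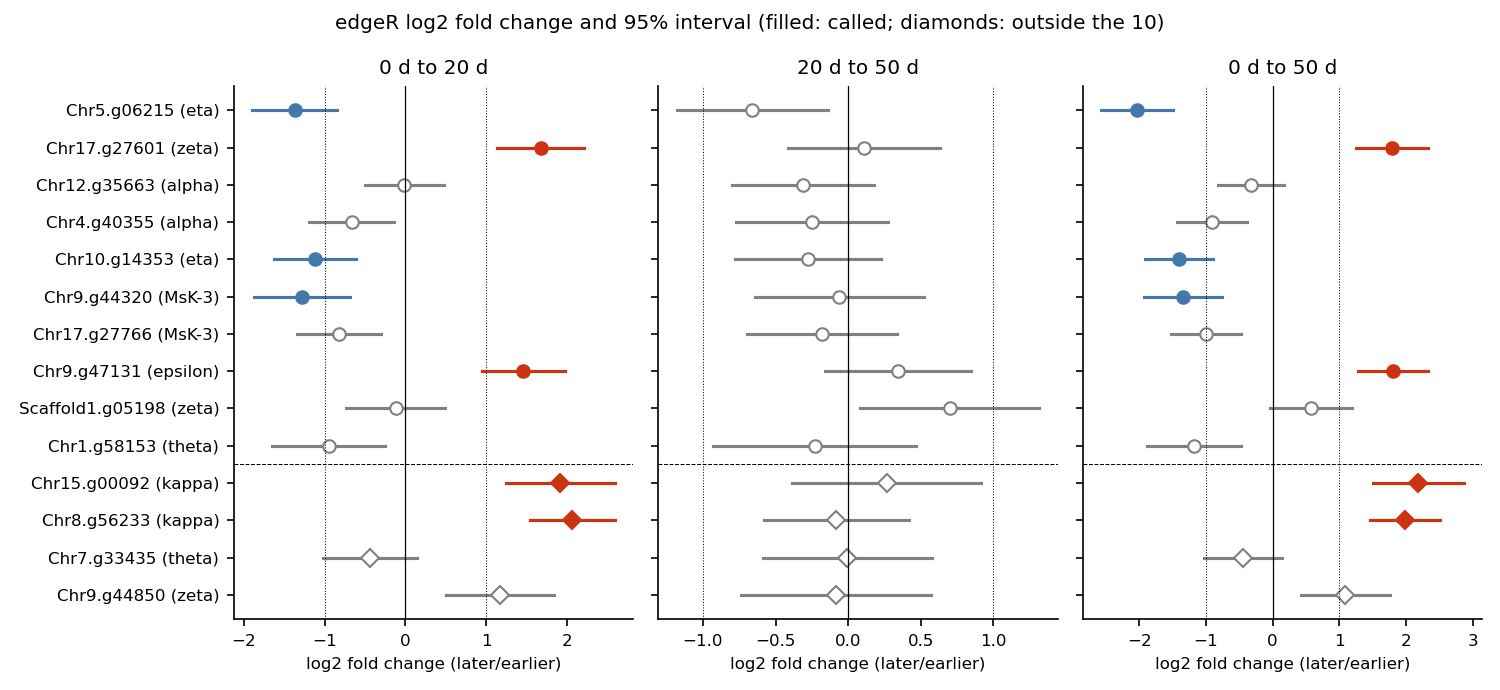
Log2 fold change (x axis, later over earlier stage; the scales of the panels differ) of the 10 kinase genes and of 4 further family genes below the dashed line, with 95% intervals from edgeR. Filled symbols passed the limits (red higher, blue lower), dotted lines mark a log2 fold change of 1 in either direction, and no kinase gene passed between 20 d and 50 d.

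A gene was called where its adjusted p over all tested genes was at most 0.01, its log2 fold change at least 1 in either direction and its mean FPKM at least 1 in 1 of the 2 stages. From 0 d to 20 d, 5 of the 10 members were called, zeta Chr17.g27601 and epsilon higher and both eta genes and MsK-3 Chr9.g44320 lower. Of all tested genes 12.4% were called, 7.88% higher and 4.52% lower. At 50 d against 0 d the same 5 genes were called in the same directions, beside 26.6% of all tested genes, 15.6% higher and 11% lower. The comparisons share the 0 d libraries. Between 20 d and 50 d none of the 10 was called by edgeR or by DESeq2, beside 1.66% of all tested genes (1.4% higher and 0.254% lower), and 2 had an unadjusted p under 0.05. These were eta Chr5.g06215 (log2 fold change -0.66, 95% interval -1.18 to -0.14, adjusted p = 0.20) and zeta Scaffold1.g05198 (0.70, 95% interval 0.08 to 1.32, adjusted p = 0.25). At an adjusted p of 0.05 with no fold limit, 6, 0 and 8 members passed from 0 d to 20 d, 20 d to 50 d and 0 d to 50 d, beside 27.5%, 5.23% and 41.6% of all tested genes.

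The number of members called from 0 d to 20 d depended on single libraries, as did that of all genes called. The member number was 2 when 0 d replicate A was left out, 1 when 0 d replicate B, 0 d replicate C, 20 d replicate A or 20 d replicate C was, and 3 when 50 d replicate A or B was. All genes called, 3515 in the full fit, were 1236 to 1419 without a 0 d library, 20 d replicate A or 20 d replicate C. They were 2983 and 2409 without 50 d replicate A and B. To 50 d, 3 members were called without 50 d replicate B, where all genes called fell from 7536 to 4829. Without both 20 d replicate B and 50 d replicate C, an alternative chosen after seeing the data, 5 members were called at 20 d and 6 at 50 d. All genes called were then 9898 and 12140.

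The median log2 fold change of the members was -0.74 to 20 d and -0.96 to 50 d, against 0.15 and 0.16 for all tested genes. These member medians are a description that depends on the choice by mean FPKM. Over all 14 family genes tested, the median was -0.28 to 20 d and -0.39 to 50 d, with 7 genes called in each comparison, 4 higher and 3 lower. The medians of all tested genes moved with the scaling. They were 0.05 and 0.09 with RLE (relative log expression) in place of TMM factors, and -0.06 and -0.16 with the length trend removed. DESeq2 was run on all genes with a count in any library rather than on the tested genes, and its median was 0.00 in both comparisons. The median size of the change was 1.04 and 1.26 for the members and 0.84 and 1.01 for all tested genes. Between 0 d and 50 d the FPKM of all 10 members separated the libraries of both stages without overlap, 7 lower and 3 higher at 50 d. Over all tested genes this held for 55.6%, in either direction. The split by direction depends on the choice of members. Theta Chr1.g58153, kept through its 0 d levels, is among the 7, and both kappa genes outside the 10 were higher at 50 d without overlap. Between 0 d and 20 d, 8 members separated the libraries without overlap (42.2% of all tested genes), and from 20 d to 50 d 6 did (25.6%).

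The order of the kinases differed between the stages. At 0 d, Chr5.g06215 led with 173 ± 4.75 FPKM (mean ± SD, n = 3), and its libraries did not overlap those of the next gene, alpha Chr4.g40355 with 88.1 ± 15.2. The 4 genes behind it, the alpha genes, eta Chr10.g14353 and MsK-3 Chr9.g44320, overlapped each with the next. At 20 d, zeta Chr17.g27601 led with 107 ± 18.6, above alpha Chr12.g35663 with 80.8 ± 2.39 and eta Chr5.g06215 with 63.1 ± 13.0, and these 3 did not overlap as neighbours in the order. At 50 d the same zeta gene led with 117 ± 16.4, followed without overlap by Chr12.g35663 with 66.01 ± 4.38. Eta Chr5.g06215 then stood behind both alpha genes with 40.5 ± 1.81 and overlapped the alpha gene Chr4.g40355 above it (44.8 ± 3.46). Within a library, the FPKM of eta Chr5.g06215 was 4.75 to 5.11 times that of zeta Chr17.g27601 at 0 d, 0.553 to 0.610 times at 20 d and 0.316 to 0.385 times at 50 d. The libraries of each stage were close together in this ratio.

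**Figure D3:**
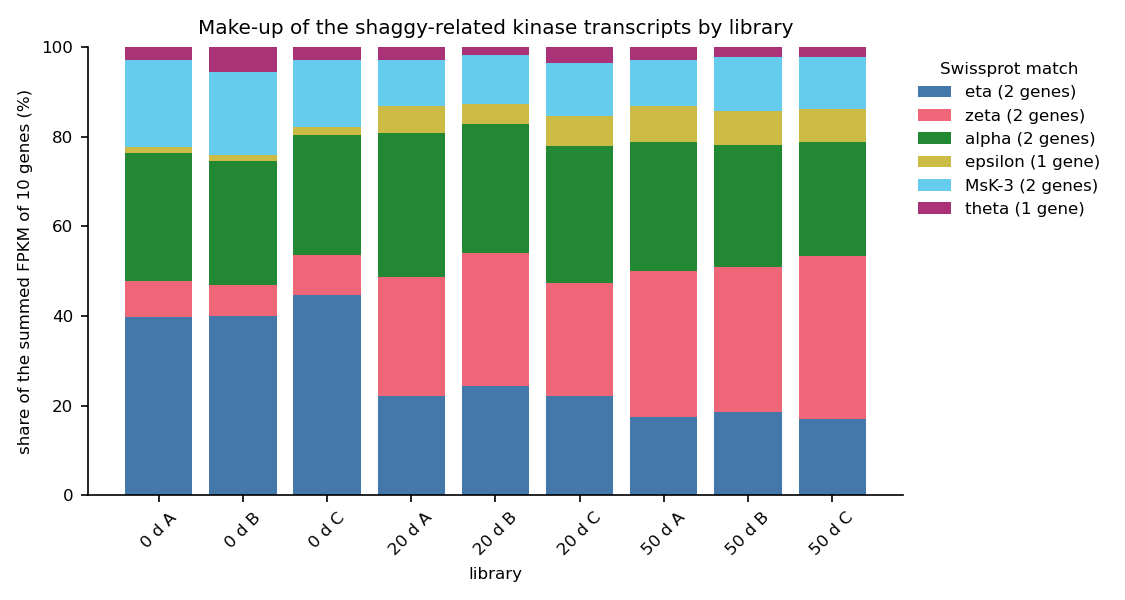
Share of each kinase type (y axis, percent of the summed FPKM of the 10 genes) in each of the 9 libraries (x axis). Eta made up 39.7 to 44.6% at 0 d and 17.0 to 18.5% at 50 d, and zeta 7.14 to 8.996% and 32.4 to 36.4%.

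The summed FPKM of the 10 genes was 570 to 671 at 0 d, 411 to 488 at 20 d and 379 to 436 at 50 d. The 0 d libraries lay above all others, and those of 20 d and 50 d overlapped. Of this sum the eta genes made up 41.4 ± 2.75% at 0 d, 22.9 ± 1.32% at 20 d and 17.7 ± 0.748% at 50 d. The zeta genes made up 8.04 ± 0.931%, 27.1 ± 2.18% and 33.8 ± 2.28%. Eta and zeta together thus stood near the same share in all libraries, while their order turned round. The alpha share was 27.6 ± 1.02%, 30.5 ± 1.68% and 27.1 ± 1.72%, with overlap between stages. The share of MsK-3 was 17.7 ± 2.38% at 0 d and 11.3 ± 1.03% at 50 d, and that of epsilon 1.505 ± 0.320% and 7.67 ± 0.382%.

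The ratio between genes with the same Swissprot match was compared within libraries for 4 pairs. Eta Chr5.g06215 had 1.73, 1.97 and 2.34 times the FPKM of eta Chr10.g14353 at 0 d, and 1.20, 1.29 and 1.35 times at 50 d. The stages did not overlap, and the log2 ratio differed by -0.64 between them (exact permutation test, two-sided, p = 0.1). Zeta Chr17.g27601 had 1.97, 2.64 and 2.54 times the FPKM of Scaffold1.g05198 at 0 d, 6.44, 7.86 and 11.9 times at 20 d, and 5.54, 5.05 and 5.63 times at 50 d. Its log2 ratio at 50 d against 0 d differed by 1.19 (exact permutation test, p = 0.1). The alpha genes were level at 0 d, with Chr12.g35663 at 0.881, 0.989 and 1.11 times Chr4.g40355, and apart at 50 d with 1.43, 1.45 and 1.53 times, a difference of 0.57 in the log2 ratio (exact permutation test, p = 0.1). The ratio of the MsK-3 genes overlapped between 0 d and 50 d (difference -0.34, exact permutation test, p = 0.4). A p of 0.1 is the smallest that 3 against 3 libraries can give, and over the 12 comparisons of pairs the smallest adjusted value was 0.171, so none could pass. The sources used here do not say how reads that fit several genes were counted or whether strand was used, and copies with like sequence could share reads.

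**Figure D4:**
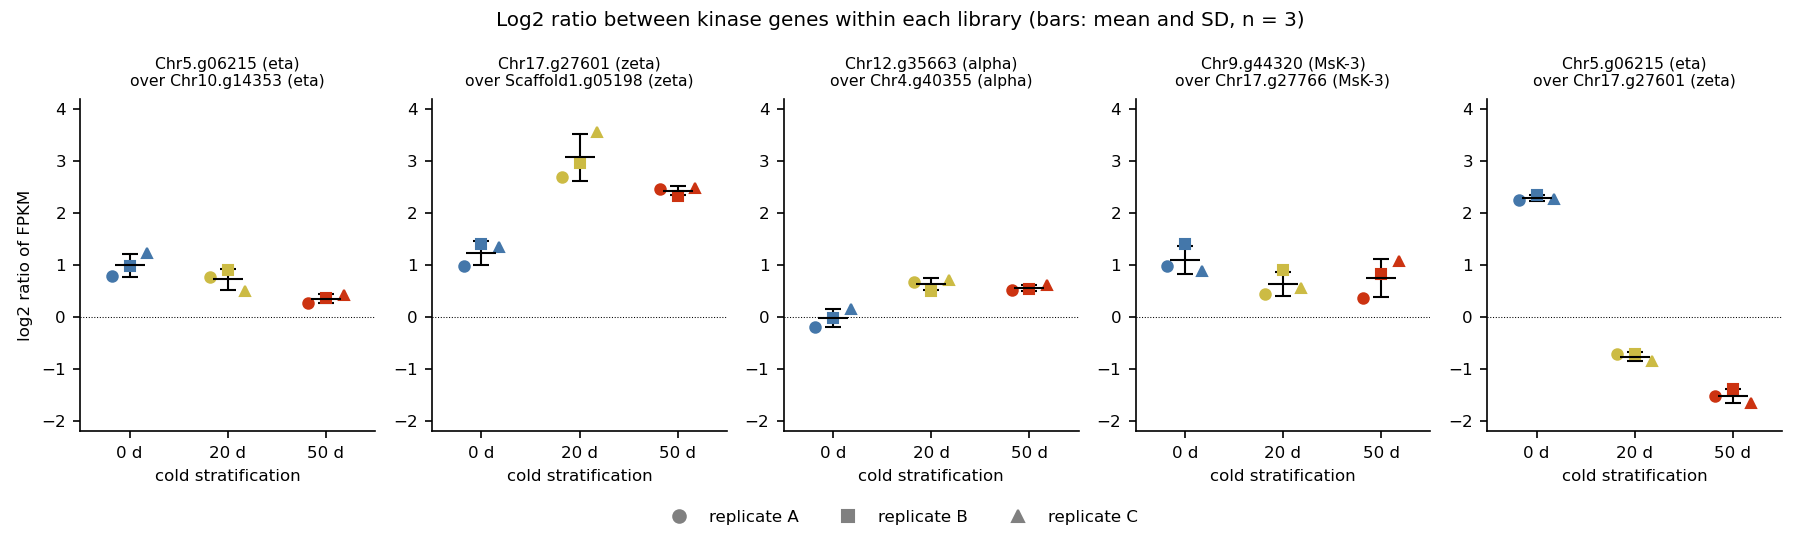
Log2 ratio of FPKM (y axis) between kinase genes within each library, by stage of cold stratification (x axis), for 4 pairs with the same Swissprot match and for the leading eta over the leading zeta gene. Symbols are replicates, bars the mean and SD of 3, and in the last panel all 0 d libraries lie above 0 and all later libraries below.

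The 5 family genes outside the 10 included the kappa pair, which belongs to yet another Arabidopsis subgroup. Kappa Chr15.g00092 had 4.10 to 5.54 FPKM at 0 d, 9.51 to 22.5 at 20 d and 20.6 to 21.1 at 50 d (log2 fold change to 50 d 2.18, SE 0.35, adjusted p = 0.0005). Kappa Chr8.g56233 had 4.44 to 5.01, 17.7 to 19.8 and 15.3 to 19.8 FPKM (1.99, SE 0.27, adjusted p = 0.0002). Both were called higher at 20 d and at 50 d. Kappa Chr15.g00092 was lowest among the cold-treated libraries in 20 d replicate B, and its call at 20 d was lost when any 0 d library, 20 d replicate A or 20 d replicate C was left out. A zeta match, Chr9.g44850, had a log2 fold change to 50 d of 1.09 (adjusted p = 0.023) and theta Chr7.g33435 of -0.44 (adjusted p = 0.24), and neither was called. The fifth gene, epsilon Chr17.g24871, had no count in any library.

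The BR pathway around the kinases was described by name from 96 genes in 5 roles, of which 69 were tested. At 20 d against 0 d, 10 were called higher and 1 lower, which is 15.9% of those tested beside 12.4% of all tested genes. At 50 d against 0 d, 14 were called higher and 2 lower, which is 23.2% beside 26.6%. The share called in either direction was thus near that of all tested genes. By direction, 7.88% of all tested genes were called higher and 4.52% lower at 20 d, and 15.6% and 11% at 50 d. The median log2 fold change to 50 d was 0.61 for the BR genes and 0.16 for all tested genes. With the length trend removed, 23 were called at 50 d, 15 higher and 8 lower, while all genes called rose from 7536 to 9609. The count to 20 d was 22 without both 20 d replicate B and 50 d replicate C, where all genes called rose from 3515 to 9898. Leaving out a library lowered the BR count to 4 (0 d replicate A or 20 d replicate C), 3 (0 d replicate B or 20 d replicate A), 1 (0 d replicate C) or 7 (50 d replicate B). All genes called were 1236 to 2409 in these fits.

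BR synthesis genes were called only in the upward direction, with 3 of 14 tested higher at 20 d and 6 at 50 d. Of all tested genes, 7.88% were called higher at 20 d and 15.6% at 50 d. A gene matching Δ24-sterol reductase, the sterol enzyme known as DWARF1 in Arabidopsis, Chr16.g31422, had 3.52, 4.45 and 5.86 FPKM at 0 d. It had 58.5, 26.9 and 50.6 FPKM at 20 d and 64.3, 56.3 and 40.3 at 50 d. Its rise was called at both stages in all 18 alternatives (log2 fold change to 50 d 3.61, SE 0.39, adjusted p = 5.93e-05). A further match to this enzyme, Chr13.g24525, rose from 0.0983 ± 0.0649 to 7.94 ± 4.38 FPKM at 50 d. The cytochrome P450 gene Chr1.g57159, matching CYP90A1 of BR synthesis, rose from 2.97 ± 0.588 to 9.82 ± 2.26 FPKM (log2 fold change 1.79, SE 0.32, adjusted p = 0.0010). Chr9.g46748, matching CYP85A, which catalyses late steps of BR synthesis, rose with a log2 fold change of 4.09 (SE 0.80, adjusted p = 0.0019), which was lost without 0 d replicate B. The only BR gene called between 20 d and 50 d, named after its values were seen, was another CYP85A match, Chr17.g25231. It had 0 counts at 0 d, 1 at 20 d and 95 at 50 d, which is at least 31.1-fold higher at 50 d than a floor of 3 counts over the 0 d libraries allows, counting error only. Its call between 20 d and 50 d was lost when any of the 9 libraries was left out. The most expressed BR inactivating gene, the CYP734A1 match Chr8.g53884, had 66.9 to 138 FPKM at 0 d, 31.0 to 66.5 at 20 d and 35.3 to 84.6 at 50 d. It was not called. Only without both 20 d replicate B and 50 d replicate C was it called, in both comparisons with 0 d.

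Among 24 tested receptor and co-receptor genes, 5 were called higher and 1 lower at 20 d, and 5 higher and 2 lower at 50 d. Of all tested genes, 7.88% were called higher and 4.52% lower at 20 d, and 15.6% and 11% at 50 d. The name patterns of this role also took in PERK2 and BRI1 kinase inhibitor 1 matches. A gene of each kind, named after its values were seen, was called higher at both stages. The PERK2 match was Chr1.g56859 (log2 fold change to 50 d 6.32, SE 0.82, adjusted p = 0.00015). The inhibitor match was Chr8.g54519 (3.70, SE 0.59, adjusted p = 0.0005). SERK2 matches were among the calls in both directions. Chr5.g08302, matching the co-receptor type SERK2, had 332, 221 and 212 FPKM at 0 d, 36.3, 95.997 and 44.1 at 20 d, and 21.4, 41.0 and 59.7 at 50 d. It fell by 2.59 on the log2 scale to 50 d (SE 0.47, adjusted p = 0.0012), and its lower call at 20 d was lost when any 0 d library, 20 d replicate A, 20 d replicate C or 50 d replicate B was left out. Another SERK2 match, Chr10.g16122, averaged 148 ± 27.6, 87.2 ± 19.6 and 51.1 ± 9.91 FPKM and fell by 1.47 to 50 d (SE 0.30, adjusted p = 0.0023), a call lost without 50 d replicate A or B. The SERK1 matches Chr10.g17000 and Chr16.g30305 rose to 50 d by log2 fold changes of 2.17 (SE 0.46, adjusted p = 0.0028) and 1.81 (SE 0.34, adjusted p = 0.0015). The former call was lost without 0 d replicate A or C, or 50 d replicate A or B. A further SERK2 match of low level, Chr13.g23390, rose to 50 d (2.95, SE 0.44, adjusted p = 0.0004), and an abundant SERK1 match, Chr11.g11785, was not called (0.18, SE 0.41, adjusted p = 0.74). Both are named after their values were seen.

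Matches to the receptor, given here after their values were seen, were split by library. Chr15.g01439, matching BRI1, a model of 4400 bases, had 2.02 to 3.02 FPKM at 0 d and 7.11 to 11.2 in 4 of the cold-treated libraries, but 2.46 in 20 d replicate B and 1.20 in 50 d replicate C. The 4 phosphatase genes of the BSL type, which act just upstream of BIN2, had their lowest values of 20 d and of 50 d in these same libraries, and none was called. The most expressed of them, Chr11.g13252, matching BSL1, had 13.95 to 23.97 FPKM at 0 d, 26.1, 8.80 and 25.8 at 20 d and 29.0, 25.7 and 17.9 at 50 d. These models are long. Among the cold-treated libraries, 20 d replicate B and 50 d replicate C are those with a negative slope on gene length relative to the mean over all libraries. The part of that slope in these values was not tested. The kinase members did not split in this way, with 20 d replicate B between -0.48 and 0.53 and 50 d replicate C between -0.11 and 0.34 from the mean of the other 2 libraries of their stage, in log2(FPKM + 1).

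Of 25 tested genes for targets of the kinases and 14-3-3 proteins, 2 were called higher at 20 d and 3 at 50 d. These are 8% and 12%, near the 7.88% and 15.6% of all tested genes. The most expressed of the role, Chr17.g25351, matching a 14-3-3-like protein A, had 204 to 291 FPKM at 0 d and 124 to 266 at 50 d. Chr10.g14326, matching a 14-3-3-like protein B, had 3.71, 13.6 and 15.5 FPKM at 0 d and 44.1, 49.1 and 64.0 at 50 d (log2 fold change 2.31, SE 0.46, adjusted p = 0.0020). Chr5.g06239, matching the transcription factor BEH4 of the BZR1 family, had 5.60, 4.56 and 4.48 FPKM at 0 d and 19.1, 17.1 and 13.6 at 50 d (1.83, SE 0.30, adjusted p = 0.0006). Chr8.g53902, matching BZR1 itself, rose from 2.09 ± 0.907 to 6.98 ± 0.884 FPKM (1.79, SE 0.40, adjusted p = 0.0037), a call lost without 0 d replicate A, 0 d replicate C or 50 d replicate B. The higher calls of Chr10.g14326 and Chr5.g06239 at 50 d were kept in all 18 alternatives.

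**Figure D5:**
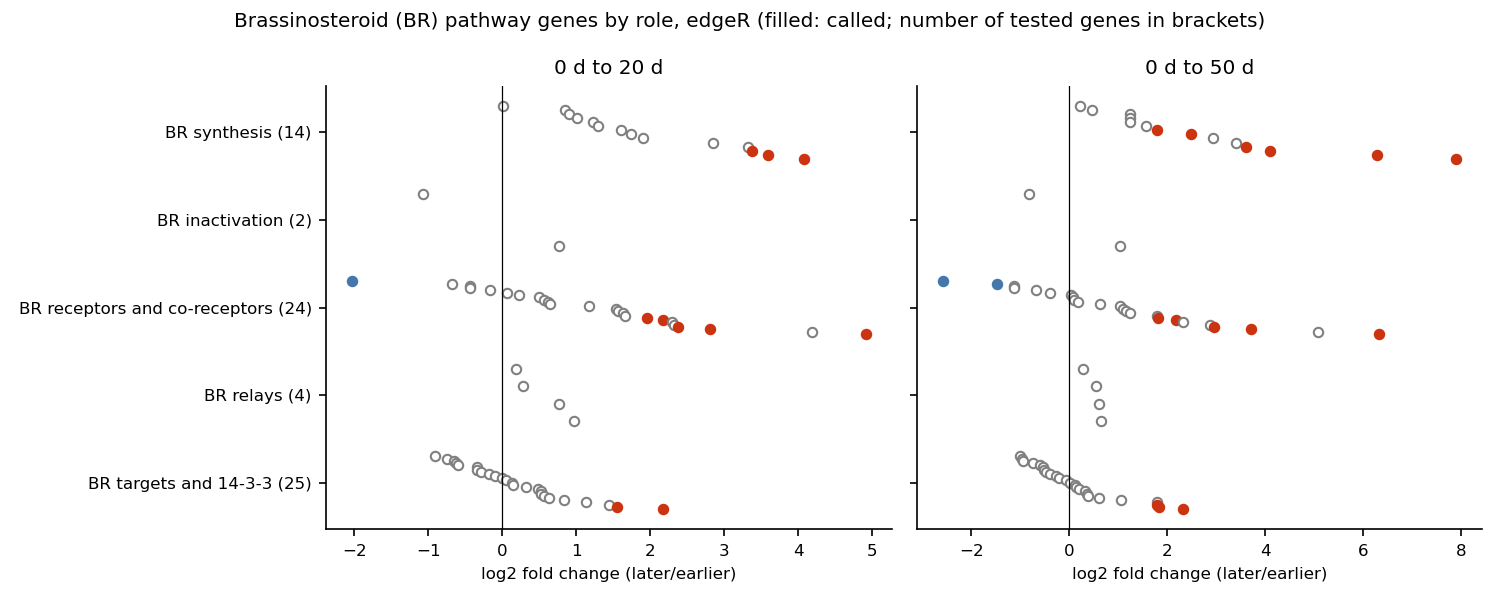
Log2 fold change (x axis, later over earlier stage) of the 69 tested BR pathway genes by role (y axis, number tested in brackets), from 0 d to 20 d and from 0 d to 50 d, each point a gene in order of its change. Filled points passed the limits (red higher, blue lower). At 50 d these were 14 higher and 2 lower genes, and none of the 4 relays passed.

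The 3 genes whose log2(FPKM + 1) followed eta Chr5.g06215 most closely over the 9 libraries, among 24878 genes with a mean FPKM of at least 1, were found by Pearson correlation. The libraries lie in 3 stages, so the correlation mostly compares stage levels. Chr9.g45924, with no Swissprot match (r = 0.994), averaged 128 ± 31.1 FPKM at 0 d, but 6.43 ± 6.39 after 20 d of cold and 0.344 ± 0.462 after 50 d. Chr15.g04858, matching the receptor-like kinase PERK9 (r = 0.994), averaged 3.13 ± 0.316, 0.893 ± 0.451 and 0.289 ± 0.117. Chr7.g32667, matching cardiolipin synthase of the mitochondria (r = 0.994), averaged 35.5 ± 2.28, 14.7 ± 2.79 and 9.18 ± 0.894.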

How the data were processed

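The authors filtered the reads, aligned them with HISAT2 to the Pyrus betuleafolia genome and deposited whole-number counts and FPKM per gene and library. The counting tool and all versions: not given in the sources used here. Not used were the deposited group means, log2 fold changes and p-values of the authors' own comparisons. Libraries were assigned to stages from the labels. Counts of all 9 libraries were fitted with edgeR 4.0.16 in R 4.3.3 (filterByExpr by stage, TMM factors, stage as factor, quasi-likelihood test), and p-values received Benjamini-Hochberg adjustment over 28339 genes. The 95% intervals are 1.96 SE to either side. This multiplier is that of a normal distribution, and with so few libraries it makes the intervals somewhat too narrow. FPKM served for levels, ratios (without pseudocount) and the FPKM limit. Alternatives used DESeq2 1.42.0, limma 3.58.1, other filters and limits, each library left out, a block by replicate letter and a fit limited to the stages compared. The length trend (loess, span 0.5) and the removal of both libraries that stood apart were added after seeing the data. The main edgeR fit, the DESeq2 fit and the limma fit on log2(FPKM + 1) were first tested on simulated data in which 200 genes differed. The other alternatives were not run on simulated data. Summaries and plots came from pandas 2.3.3, numpy 2.4.6, scipy 1.17.1 and matplotlib 3.10.9 under Python 3.11.15.

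The members and lists were chosen with earlier results of these data known. Named were all 10 members, the most expressed gene of each BR role and the called genes (at most 4 per role, by mean FPKM), and the 3 genes most like the member with the largest change. BR roles were patterns in the Swissprot names. Depth of 13893019 to 16228340 counts per library limits the precision of low genes.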

Additional observations from a re-analysis of the deposited data

How the results depend on the processing

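Of 540 log2 fold changes of single members under an alternative, 477 kept their direction and their side of the limits, 14 passed only under the alternative, 41 no longer passed and 8 turned their sign. The sign turned only for changes that were not called. From 0 d to 20 d these were Chr12.g35663 (0.018 with no low-count filter, and -0.18 to 0.026 with a library left out) and Scaffold1.g05198 (-0.41 to 0.15 with a library left out). Between 20 d and 50 d they were Chr17.g27601 (-0.0067 with the length trend removed) and Chr9.g44320 (0.027 without both libraries that stood apart, 20 d replicate B and 50 d replicate C, and -0.18 to 0.11 with a library left out). The 5 members called from 0 d to 20 d became 3 with no low-count filter, 2 when only the 2 stages were fitted, and 1 to 5 with a library left out. At 50 d against 0 d, 8 members passed an adjusted p of 0.05 with no fold limit, and 3 to 7 were called with a library left out. Between 20 d and 50 d it was 0 with every library left out in turn. With the length trend removed, 7 members were called in each comparison with 0 d, 1 higher and 6 lower. Of BR genes from 0 d to 20 d, where 11 were called, 6 passed with the FPKM limit applied to both stages, 18 at an adjusted p of 0.05 with no fold limit, 22 without both libraries that stood apart, and 1 to 15 with a library left out. From 20 d to 50 d the number of BR genes called, 1 in the fit reported, was 2 with DESeq2, at an adjusted p of 0.05, without both libraries, with the length trend removed or with no low-count filter, and 0 with the FPKM limit in both stages or when only the 2 stages were fitted, and 0 to 1 with a library left out. The genes differed, since Chr17.g25231 was lost whenever a library was left out. The 16 called at 50 d against 0 d became 9 with the FPKM limit in both stages, and ranged from 13 to 17 over the fits that left out a library. The cause of these differences was not tested.

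Only 2 of 9 pairs of libraries with the same replicate letter deviated together with r above 0.1 (range -0.56 to 0.55), so the letters were not taken to pair the samples. With the letter as a replicate block, 0, 0 and 4 members were called from 0 d to 20 d, 20 d to 50 d and 0 d to 50 d, and 3, 0 and 14 BR genes. All 5 member calls to 20 d were lost, with an adjusted p of 0.0108 (Chr17.g27601), 0.0143 (Chr9.g47131), 0.0186 (Chr5.g06215), 0.0308 (Chr9.g44320) and 0.0354 (Chr10.g14353), and to 50 d that of Chr9.g44320 (0.0151). All genes called by the block fit were 1292, 50 and 5163, against 3515, 470 and 7536.

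All genes called were 6171, 1620 and 9812 with DESeq2, 9898, 906 and 12140 without both libraries that stood apart, and 5448, 1040 and 9609 with the length trend removed, where 2642, 716 and 4296 were higher. They were 7787, 1483 and 11777 at an adjusted p of 0.05 with no fold limit. From 20 d to 50 d they were 227 with the FPKM limit in both stages, 921 with limma-trend on log2(FPKM + 1), 988 with no low-count filter and 0 when only the 2 stages were fitted, and from 0 d to 50 d 4996 with the FPKM limit in both stages. Fits that left out a library gave 1236 to 6984, 75 to 598 and 4829 to 10043.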

Other observations

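A 14-3-3 gene and a BEH4 gene of the BR list lay near each eta gene. Eta Chr5.g06215 had a 14-3-3-like protein D, Chr5.g06196, at 136 kb and a BEH4 match, Chr5.g06239, at 195 kb. Eta Chr10.g14353 had a 14-3-3-like protein B, Chr10.g14326, at 197 kb and a BEH4 match, Chr10.g14380, at 200 kb. These neighbours were chosen after their values were seen. The 14-3-3-like protein D gene Chr5.g06196 had 101, 178 and 214 FPKM at 0 d and 187, 200 and 231 at 50 d, with overlap of the stages. The BEH4 match Chr10.g14380 had 7.39, 8.97 and 9.51 FPKM at 0 d, 17.5, 15.96 and 20.3 at 20 d and 13.99, 13.01 and 10.7 at 50 d, highest at 20 d and not called (adjusted p = 0.0109 from 0 d to 20 d). Other genes near the kinases were not analysed here.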
